A study of Drosophila melanogaster with 4 samples.

Results

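The X chromosome of Drosophila melanogaster between its ends held 1007 regions enriched for ubiquitylated histone H2B (H2Bub) in replicate 1 and 1004 in replicate 2, called clusters here. A cluster belonged to this set when its midpoint lay more than 2 Mb from either end of the X sequence, 22422827 bp long in FlyBase release 5, so that the set ends at position 20422827. The lists of the whole genome held 5440 and 5597 clusters. The authors' combined list of both replicates held 6056, of which 1070 belonged to the set. They were set against the clusters of the autosomal arms 2L, 3L and 3R, taken in the same way: 2721 and 2807 in replicates 1 and 2, and 3004 in the combined list. Arm 2R was not measured, so the words autosomes and autosomal arms stand for 2L, 3L and 3R only.

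The chromatin came from head nuclei of wild-type Oregon-R flies, labelled as mixed adults, sieved from population cages; the labels give no sex. Formaldehyde-fixed, sonicated chromatin was immunoprecipitated with the antibody NRO3 and sequenced, in 2 ChIP replicates that each have an input of their own. Nothing in the labels says that the replicates are separate fly populations, so their spread may be technical. All samples share 1 genotype, tissue and antibody.

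Ubiquitin is attached to histone H2B by the ligase Bre1 with its partner enzyme Rad6, in step with elongating RNA polymerase II, so that the mark lies over the bodies of transcribed genes and is known as a sign of elongation. It is taken off by the deubiquitinase module of the SAGA complex, which holds the enzyme Nonstop. The X is the arm on which transcription is known to be raised in Drosophila males, which carry a single copy of it: the MSL complex binds over its active genes and acetylates histone H4. The files hold regions and scores, not genes, so each region is given by position only.

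On X, clusters were more closely packed and narrower than on each of the 3 autosomal arms, and the narrow ones carried higher scores than autosomal clusters of the same width. Since the labels give no sex, the number of X copies per autosome in the chromatin and in the inputs is unknown, and its part in the scores and widths of X clusters was not tested. Density was 54.7 clusters per Mb in replicate 1 and 54.5 in replicate 2 on X. On the autosomal arms it lay between 42.2 and 44.0 per Mb in replicate 1 and between 42.9 and 46.4 in replicate 2. X exceeded the 3 arms together by 11.0 ± 1.07 clusters per Mb (mean ± SD, n = 2 replicates). The share of sequence covered did not separate X from the autosomes in the same direction in both replicates. It was 27.6% on X against 28.8% on the autosomal arms in replicate 1, and 29.6% against 29.3% in replicate 2, a difference of -0.48 ± 1.13 percentage points, smaller than its own spread. In the combined list X was the more covered, by 1.94 points. No p-value is given for any of these contrasts, because X and autosomes are read from the same 2 libraries: an exact two-sided sign-flip test over 2 replicates cannot go below 0.5, and clusters of one library are not replicates.

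The score is the authors' value per cluster, on a scale that the sources used here do not state. To set X against autosomes at similar width, the clusters of the 4 arms were ordered by width in each list and divided into 10 classes of equal number. The median autosomal score rose with width from the second class to the widest in each replicate, but on X and on the autosomes it was lower in the second class than in the narrowest. In the narrowest class, 1301 to 1550 bp wide in replicate 1, the median score was 0.730 for 120 X clusters and 0.532 for 253 autosomal ones. Replicate 2 gave 0.681 for 116 X clusters and 0.523 for 266 autosomal ones in its narrowest class. X was thus higher by 0.178 ± 0.0285 (mean ± SD, n = 2). The arms 2L, 3L and 3R were close to each other there, with medians of 0.501, 0.531 and 0.552 in replicate 1 and 0.524, 0.524 and 0.518 in replicate 2.

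The difference had nearly the same size in each of the 6 narrowest classes, that is for clusters up to 4335 bp in replicate 1 and 4376 bp in replicate 2. It lay between 0.154 ± 0.00574 in the second class and 0.183 ± 0.00284 in the sixth. In the seventh to ninth classes it was 0.101 to 0.110. In the widest class, from 13611 bp in replicate 1 and 14072 bp in replicate 2, X and autosomes no longer differed by more than the replicates did: the medians were 1.41 on X and 1.36 on the autosomes in replicate 1, and 1.37 on both in replicate 2, a difference of 0.0242 ± 0.0312. The upper end of the scores there ran the other way. The 90th percentile in the widest class was 1.65 on X and 1.81 on the autosomes in replicate 1, and 1.66 and 1.82 in replicate 2. It was also lower on X in the seventh class, at 1.28 against 1.40 in replicate 1 and 1.34 against 1.44 in replicate 2. The widest class ran to 105892 bp in replicate 1 and 106243 bp in replicate 2, while the widest X clusters measured 84391 and 84385 bp. Widths inside that class were therefore not closely matched, and the part of width in its values was not tested. The lower end stayed higher on X throughout: the 10th percentile exceeded that of the autosomes in all 10 classes, by between 0.111 ± 0.0122 in the widest and 0.215 ± 0.0133 in the ninth.

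**Figure D1:**
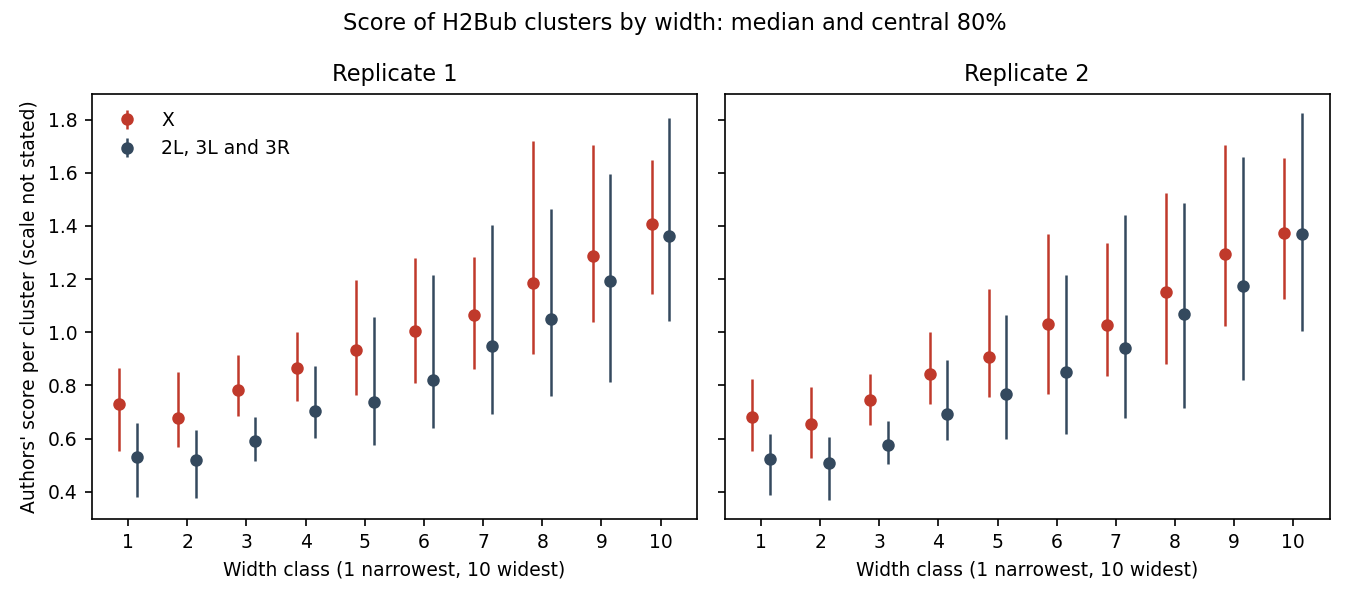
Authors' score (y axis, scale not stated) of clusters on X (red) and on 2L, 3L and 3R together (dark) in 10 width classes of equal number (x axis), with one panel per replicate; points are medians and bars run from the 10th to the 90th percentile over clusters. X medians lie above autosomal ones in the narrow classes, by 0.198 in the first class of replicate 1, and come together in the widest class.

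The highest scores also showed an X excess, but it fell off at narrower widths than the difference in medians did. In each width class the 10% of clusters with the highest scores were marked, which by construction called 9.92% of all clusters in replicate 1 and 9.97% in replicate 2. X supplied 202 of 370 such clusters in replicate 1 (54.6%) and 190 of 380 in replicate 2 (50.0%), while it held 27.0% and 26.3% of all clusters. The excess was 25.6 ± 2.78 percentage points (mean ± SD, n = 2). It depends on matching for width: among the highest 10% of scores without width classes, the X share was below its share of clusters, with a difference of -4.40 ± 1.26 points (mean ± SD, n = 2). Of the X clusters themselves, 20.1% were marked in replicate 1 and 18.9% in replicate 2, against 6.17% and 6.77% of autosomal clusters.

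The excess was largest among narrow clusters. In the 3 narrowest classes, up to 2241 bp in replicate 1 and 2224 bp in replicate 2, X supplied 110 of 111 marked clusters in replicate 1 and 106 of 114 in replicate 2, although it held only 31.8% and 29.6% of the clusters there. In the fourth to sixth classes it supplied 59 of 111 and 54 of 114. In the seventh to ninth together it supplied 31 of 111 and 28 of 114. That was 27.9% and 24.6%, close to its 23.1% and 24.1% of those clusters, but the 3 classes differed. In the seventh X supplied 4 of 37 and 7 of 38, or 10.8% and 18.4%, below its 24.1% and 26.0%. In the eighth it supplied 40.5% and 28.9%, above its 21.4% and 24.4%. In the ninth it supplied 32.4% and 26.3%, above its 23.6% and 21.8%. In the widest class, inside which widths were not closely matched, X supplied 2 of 37 in replicate 1 and 2 of 38 in replicate 2. That is 5.41% and 5.26%, below its share of 15.6% and 19.7%. Few narrow autosomal clusters scored above the X median of their class: 0.398 to 2.77% in the 3 narrowest classes of replicate 1 and 1.88 to 2.79% in those of replicate 2. In the widest class it was 44.9% and 49.7%. The ranges of scores still overlapped in the narrowest class, where the 10th percentile on X was 0.552 in replicate 1 and 0.553 in replicate 2, below the autosomal 90th percentile of 0.657 and 0.617.

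**Figure D2:**
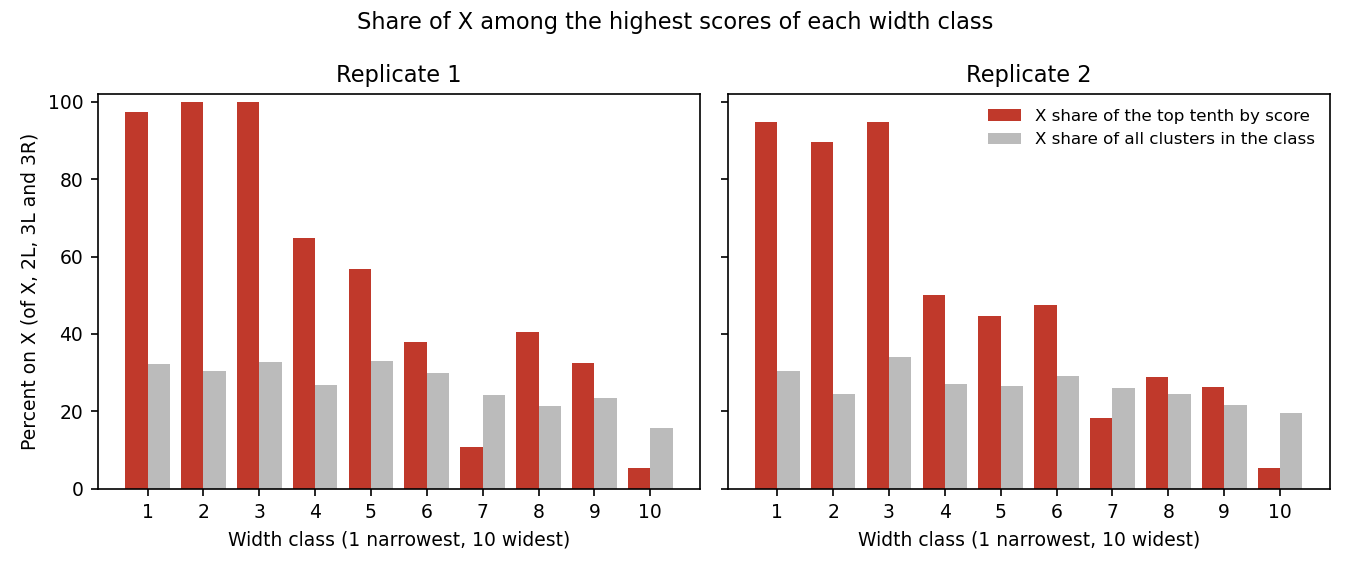
Percentage of clusters on X (y axis, of those on X, 2L, 3L and 3R) among the 10% with the highest scores in each width class (red bars) and among all clusters of that class (grey bars), one panel per replicate. The red bars stand between 89.5% and 100% in the 3 narrowest classes of either replicate and at 5.41% and 5.26% in the widest.

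The authors' combined list showed the pattern at lower size. There the rule called 10.1% of clusters, and X supplied 183 of 410 (44.6%) against 26.3% of all clusters. In its 3 narrowest classes X supplied 108 of 123, and in its widest 1 of 41. Its narrowest class ran from 1001 to 1315 bp, while those of the replicates started at 1301 bp. In its 3 widest classes, from 6251 bp, the X median score was lower than the autosomal one, with differences from -0.0248 to -0.0348.

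The higher scores of narrow X clusters were found along the whole arm. When the X between its ends was cut into 6 stretches of equal length, the median score percentile of clusters up to 2241 bp ranged from 34.8 to 43.0 in replicate 1, where the percentile is the rank of a score within the whole list of that replicate. In replicate 2, for clusters up to 2224 bp, it ranged from 31.8 to 43.0. Each stretch held 43 to 79 such clusters. On 2L, 3L and 3R between their ends the corresponding medians were 12.6, 12.4 and 14.3 in replicate 1 and 12.2, 12.4 and 12.4 in replicate 2. Thus the lowest X stretch stood above the highest autosomal arm in both replicates. The 2 Mb at either end of X, which are not part of the set, had like values: a median percentile of 37.3 over 57 narrow clusters in replicate 1 and 36.8 over 53 in replicate 2. Narrow clusters in the ends of 2L, 3L and 3R had medians between 9.82 and 12.3 in replicate 1 and between 12.0 and 13.5 in replicate 2.

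Clusters with very low scores were correspondingly few on X. Of the X clusters, 14 in replicate 1 (1.39%) and 16 in replicate 2 (1.59%) fell among the lowest 10% of scores of the whole list, compared with 11.4% and 12.2% of those on the autosomal arms. The 5th percentile of the score was 0.609 on X in replicate 1 and 0.600 in replicate 2. On the autosomal arms together it was 0.448 and 0.440. At the upper end X stood below the 3 autosomal arms pooled but not below each of them in the replicates. The 95th percentile was 1.53 and 1.58 on X, against 1.59 and 1.62 on the autosomes together and 1.51 and 1.56 on 2L. The highest score was 1.90 and 2.12 on X, against 2.27 and 2.32 on the autosomes, while in the combined list it was 2.30 on X and 2.29 on the autosomes. That combined X score belonged to a cluster of 1001 bp that overlapped neither replicate list. Among combined X clusters that overlap both replicate lists the highest score was 1.94.

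Read the other way, X clusters were narrower than autosomal clusters of like score. The clusters of the 4 arms were divided into 10 classes of equal number by score. In the fifth class the median width was 2134 bp on X and 3978 bp on the autosomes in replicate 1, a ratio of 0.536, and 2149 and 3768 bp in replicate 2, a ratio of 0.570. The median X cluster was the narrower in all 10 classes of either replicate, with ratios from 0.536 to 0.966. Within each replicate the lowest and the highest score class were nearest to equal width, with ratios of 0.966 and 0.838 in replicate 1 and 0.953 and 0.884 in replicate 2.

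A domain called in pieces would look like a run of narrow clusters, so clusters less than 1 kb apart were joined before widths were compared. Joining left 723 and 716 domains on X in replicates 1 and 2, or 39.2 and 38.9 per Mb. The autosomal arms had 30.6 to 33.8 joined domains per Mb in replicate 1 and 31.4 to 34.8 in replicate 2. Their mean width was 7194 bp on X and 9140 bp on the autosomes in replicate 1, and 7789 and 9062 bp in replicate 2. The ratio of X to autosomes was 0.823 ± 0.0512 (mean ± SD, n = 2) after joining, against 0.785 ± 0.0499 without it, so the lower width of X clusters was still present in joined domains. X lay below each of the 3 arms in mean and in median joined width in both replicates. Median joined width was 4183 bp on X against 4952 bp on the autosomes in replicate 1, and 4269 against 4876 bp in replicate 2. In the combined list the X median of 5069 bp stood above that of 3L, 4978 bp, and below those of 2L and 3R.

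X domains were split slightly more often. Of the joined X domains, 29.3% in replicate 1 and 27.9% in replicate 2 were made of more than 1 cluster. The 3 autosomal arms ranged from 23.0 to 28.2% and from 23.6 to 27.6%, with 2L nearest to X at 28.2% and 27.6%. In the combined list 2L, at 32.2%, exceeded X, at 31.1%. A narrow cluster on X had a neighbour within 1 kb in 50.3% of cases in replicate 1 and 47.8% in replicate 2. The shares were 43.3% and 42.6% on the autosomes together, with 2L nearest to X at 47.9% and 46.3%. In the combined list they were 54.3% on X, 54.4% on the autosomes together and 57.4% on 2L.

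Wide domains were fewer per Mb on X than on each of 2L, 3L and 3R. Joined domains of 20 kb and over numbered 39 on X in replicate 1 and 55 in replicate 2, which is 2.12 and 2.99 per Mb. The autosomal arms had 3.41 to 3.63 per Mb in replicate 1 and 3.39 to 3.58 in replicate 2. The combined list held 77 on X, or 4.18 per Mb, against 4.33 to 4.60. Among unjoined clusters, those over 10 kb held 41.1% of the covered X bases in replicate 1 and 44.7% in replicate 2, and 54.4% and 54.1% of the covered autosomal bases.

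The stretches between joined domains were shorter on X at the median, and more so at the 90th percentile. Median spacing was 5733 bp on X in replicate 1 and 5720 bp in replicate 2. It was 6741 and 6433 bp on the autosomal arms together, with the nearest arm, 3R, at 6230 and 5912 bp. The ratio of the medians was 0.870 ± 0.0274 (mean ± SD, n = 2). At the 90th percentile the spacing was 44471 bp on X and 61622 bp on the autosomes in replicate 1, and 42872 and 59541 bp in replicate 2, a ratio of 0.721 ± 0.00115. The 3 autosomal arms lay between 59292 and 62957 bp in these lists, so X stood outside their range. With only the upper 50% of each list by score the ratio of the medians was 0.474 ± 0.0928. That filter keeps a larger share of X clusters, whose median score percentile was 59.1 and 58.1, against 45.3 and 46.3 on the autosomes. The lower ratio is therefore not separate from the difference in scores. Stretches over 50 kb numbered 66 on X in replicate 1 and 61 in replicate 2, or 3.58 and 3.31 per Mb, against 4.21 and 4.18 per Mb on the autosomes. They took up 38.1% and 36.6% of X, and 41.3% and 40.6% of the autosomal sequence. The single longest stretch on X, 379308 bp in replicate 1 and 374955 bp in replicate 2, was longer than that on 2L, 244827 and 250568 bp. It was shorter than those on 3L and 3R.

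**Figure D3:**
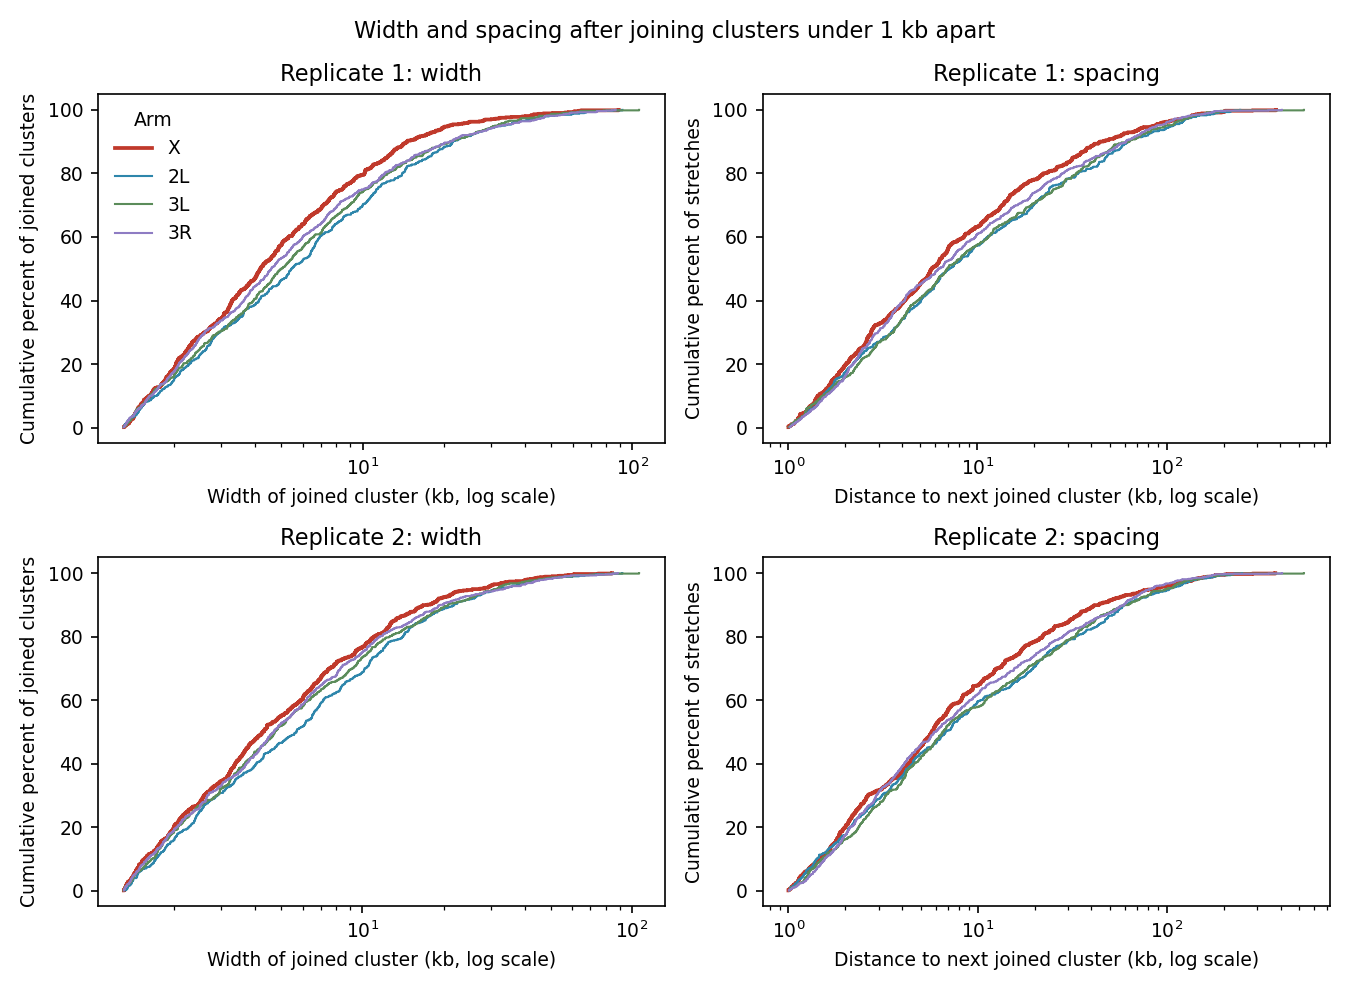
Cumulative percentage (y axis) of joined domains by width (left, kb, log scale) and of the stretches between them by length (right, kb, log scale) on X (thick red) and on 2L, 3L and 3R, with replicate 1 above and replicate 2 below. The X curves run to the left of the autosomal ones over most of the range, and at the 90th percentile the spacing on X is 44471 bp in replicate 1 and 42872 bp in replicate 2.

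Over 184 bins of 100 kb, laid end to end from the start of the set, coverage of X varied from none to nearly complete. It had a standard deviation over bins of 20.8 percentage points in replicate 1 and 21.9 in replicate 2, against 21.0 in each replicate on the autosomal arms. The difference of 0.36 ± 0.75 points was smaller than its spread, and with bins of 50 kb it was -1.02 points. At 10 kb, coverage of neighbouring bins was about as alike on X as elsewhere: Pearson's r between adjacent bins was 0.57 on X in replicate 1 and 0.59 in replicate 2, and 0.59 to 0.63 on the autosomal arms in replicate 1 and 0.60 to 0.63 in replicate 2. At a distance of 50 kb it was 0.11 on X in both replicates and 0.05 to 0.12 on the autosomes. These correlations are across bins of one library, which share depth and sequence makeup, and are given as a description.

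**Figure D4:**
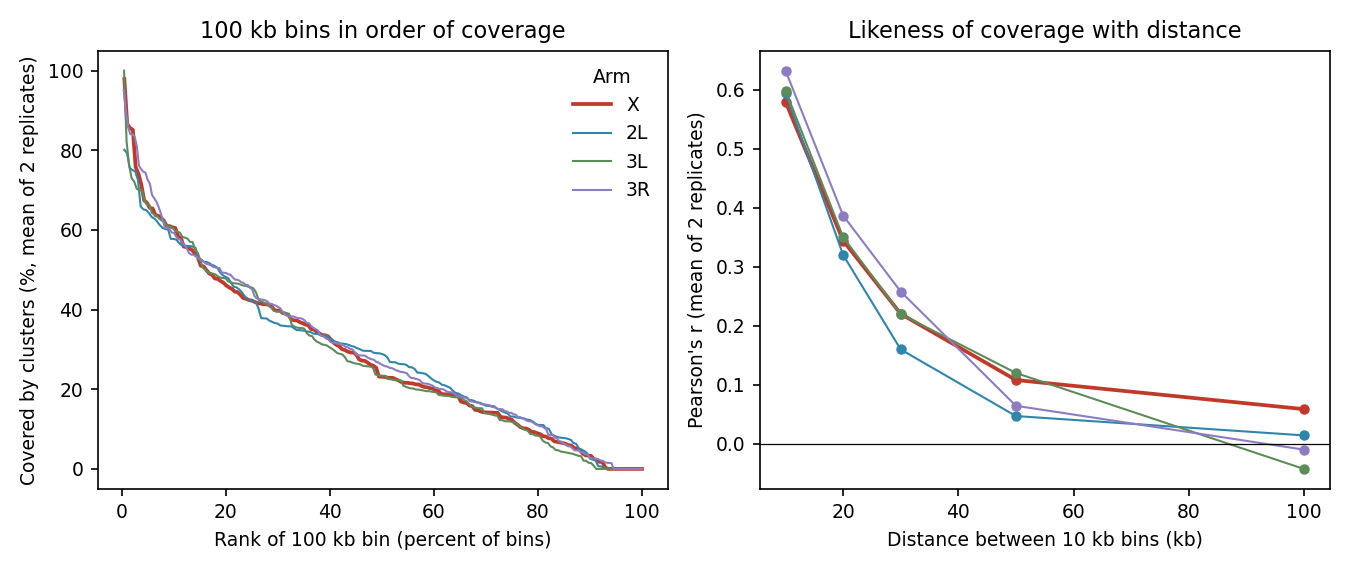
Left, coverage by H2Bub clusters (y axis, percent, mean of 2 replicates) of 100 kb bins in descending order (x axis, percent of bins) on X (thick red), 2L, 3L and 3R. Right, Pearson's r between 10 kb bins (y axis, mean of 2 replicates) against the distance between them (x axis, kb). The X curve lies among the autosomal ones in the left panel, and in the right panel falls to r = 0.11 at 50 kb in either replicate.

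The most densely marked bins of X were the same in both replicates. Coverage was 97.5% in replicate 1 and 98.3% in replicate 2 from 5000001 to 5100000, the highest on X. It was followed by 12100001 to 12200000, with 85.5% and 87.8%, and 10500001 to 10600000, with 85.0% and 86.2%. The other two of the 5 highest were 14700001 to 14800000, with 83.0% and 87.3%, and 14200001 to 14300000, with 73.9% and 77.6%. In all, 18 of the 184 bins exceeded 60% in both replicates. At the other end, 13 bins held no cluster base in either replicate, and 12 of these held none in the combined list. The first 5 of these in order of position began at 2700001, 4600001, 7300001, 7400001 and 9600001. By stretches of 1 Mb, mean coverage was lowest from 18000001 to 19000000, at 17.6% and 19.7%, and highest in replicate 1 from 10000001 to 11000000, at 37.3%. In replicate 2 the highest was 39.2%, from 11000001 to 12000000.

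The highest-scoring pair of combined clusters on X overlapped neither replicate list: X:9402252-9403252 (1001 bp, score 2.30) and X:3623264-3624328 (1065 bp, score 2.11). Both were narrower than any X cluster of the replicate lists, where the narrowest was 1306 bp in replicate 1 and 1304 bp in replicate 2. Of the combined clusters that overlap both replicate lists, the highest score, 1.94, belonged to X:6761944-6769384 (7441 bp). Its counterpart ranked 65 in replicate 1 and 13 in replicate 2, counting over all chromosomes. Second was X:9569644-9579164 (9521 bp), with a score of 1.92 and ranks 73 and 28. It borders the longest stretch of X without a combined cluster. Next came X:2482240-2493044 (10805 bp), with a score of 1.88 and ranks 74 and 45. The remaining 7 of the first 10 scored from 1.84 to 1.69, and 6 of them were 6595 to 13729 bp wide. They lay at X:16590700-16604428, X:19521494-19534842, X:2009636-2017670, X:5625290-5632414, X:4980884-4991210 and X:3589220-3595814. The other one, X:12097518-12187412, was 89895 bp wide, scored 1.79 and ranked 93 in replicate 1 and 71 in replicate 2. Each of the 10 was covered to 92.8% or more in both replicates.

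The widest joined domain on X spanned 123421 bp, from 4996902 to 5120322, and was wider than the widest on 2L, 3L or 3R in the combined list, 109653 bp. In the replicate lists the widest joined X domain measured 88974 and 84385 bp, below the 105892 and 106243 bp of the widest on the autosomes. The domain from 4996902 was made of 2 combined clusters, was cut into 5 clusters in replicate 1 and 2 in replicate 2, and was covered to 97.4% and 98.5%. The next were X:14216166-14310362 (94197 bp), X:12097518-12190436 (92919 bp), X:14722788-14808644 (85857 bp) and X:19247006-19332106 (85101 bp). The domains at 14722788 and 14216166 were each made of 6 combined clusters and corresponded to 9 clusters each in replicate 2, while in replicate 1 they corresponded to 14 and 7 clusters. Coverage of the domain at 14722788 was 88.2% and 92.5%.

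The longest stretch of X without a combined cluster ran from 9579165 to 9953821 (374657 bp) and held no cluster in either replicate. It was followed by 7218259 to 7502057 (283799 bp), 13893185 to 14094851 (201667 bp), 18084303 to 18264759 (180457 bp) and 2683879 to 2858467 (174589 bp). Replicate 1 had no cluster base in any of the 5. Replicate 2 reached into 3 of them with the edge of a neighbouring cluster, over at most 0.0698% of the stretch.

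Agreement between the replicates was lower on X than on the autosomal arms. The Jaccard index, shared bases over bases covered in either replicate, was 0.804 on X, against 0.877 on 2L, 0.873 on 3L and 0.867 on 3R. Of the X clusters, 926 of 1007 in replicate 1 (92.0%) overlapped a cluster of replicate 2, and 848 of 1004 in replicate 2 (84.5%) overlapped one of replicate 1. For the autosomal arms these shares were 93.2% and 89.95%, and over X and the autosomes together 92.9% and 88.5%. X minus autosomes averaged -3.37 ± 3.00 percentage points, with -1.24 in replicate 1 and -5.49 in replicate 2. The size depends on the overlap asked for and on the score: it was -9.15 ± 1.87 points with a reciprocal overlap of 50% in place of 1 bp, and -6.04 ± 3.35 points with only the upper 50% of each list by score. The score filter acts on a value that ranks higher on X, so the latter difference is not separate from that in scores. Among narrow clusters up to 2224 bp of replicate 2, 61.4% of 339 on X were found in replicate 1, against 69.1% of 805 on the autosomes. In the converse direction, for narrow clusters of replicate 1, the shares were 79.2% of 356 and 79.3% of 763. Among the wider clusters they were 98.9% on X and 98.6% on the autosomes in replicate 1, and 96.2% and 98.4% in replicate 2. Within these width groups X and autosomes were thus nearly equal in replicate 1, and X was lower in replicate 2.

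Replicate 2 marked more of X than replicate 1, and the excess was larger than on the autosomes. It covered 2.04 percentage points more of X, against 0.408 to 0.489 points more of the 3 autosomal arms. Bases marked only in replicate 2 made up 4.12% of X, compared with 2.08% marked only in replicate 1. On the autosomal arms together the values were 2.21% and 1.77%. The excess was spread over the arm: coverage was higher in replicate 2 in 129 of 184 bins of 100 kb on X and lower in 42, while it was higher in 105 of 190 and lower in 72 on 2L, higher in 114 of 205 and lower in 71 on 3L, and higher in 121 of 239 and lower in 104 on 3R. The largest single difference on X was in the bin from 8800001 to 8900000, chosen after its values were seen, with 38.2% in replicate 1 and 63.5% in replicate 2.

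Part of this lay in the bounds of shared clusters. Among 593 X clusters that paired 1 to 1, the replicate 2 cluster was the wider in 65.3%, by a median of 146 bp over all pairs. Among 1883 autosomal pairs it was wider in 57.7%, by a median of 58 bp. Starts differed by a median of 167 bp on X and 131 bp on the autosomes, and ends by 172 and 127 bp. Also, 137 replicate 2 clusters on X (13.6%) spanned more than 1 cluster of replicate 1, against 8.21 to 10.6% on the autosomal arms. In the converse direction it was 7.65% on X and 8.56 to 8.72% on the autosomes. Scores of paired clusters ranked alike in both replicates, with a Spearman's rho across pairs of 0.86 on X and 0.93 to 0.94 on the autosomal arms, given as a description. The median change in score from replicate 1 to replicate 2 was small, 0.0146 on X and 0.0197 on the autosomes.

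Clusters called in only 1 replicate were narrow on X and on the autosomes alike, but ranked higher on X, as narrow clusters did in general. All narrow X clusters, up to 2241 bp in replicate 1 and 2224 bp in replicate 2, stood at median percentiles of 40.1 and 36.2. Those of 2L, 3L and 3R stood at 12.4 to 14.3 in replicate 1 and 12.2 to 12.4 in replicate 2. The 81 X clusters found only in replicate 1 stood at a median percentile of 47.9 by score, and the 185 such autosomal clusters at 18.4. Their widths were alike, with medians of 1586 and 1600 bp. The 156 X clusters that replicate 2 alone held stood at 39.4 and the 282 autosomal ones at 14.0, with median widths of 1688 and 1574 bp. The combined list added 209 X clusters that overlap neither replicate, 19.5% of its X clusters, at a median percentile of 38.3 and a median of 1329 bp in width. On the autosomes it added 549 of 3004, or 18.3%, at a median percentile of 15.6 and 1305 bp wide at the median. The share that overlapped neither replicate was thus about the same on X and on the autosomes. All combined clusters up to 2157 bp stood at 37.0 on X and at 13.3 to 14.4 on 2L, 3L and 3R. The combined list holds clusters from 1001 bp on these arms, while the replicate lists start at 1301 bp.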

How the data were processed

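H2Bub ChIP-seq regions were taken from the lists of the 2 ChIP replicates and the authors' combined list. The authors deposited each region with a start, an end and a score whose scale is not given in the sources used here; nor are the region caller, its threshold and its use of the inputs. The submitters' processing notes name Bowtie 0.12.7 as the tool used, and coordinates are FlyBase release 5, per the file headers. No read counts were used, so depth is unknown and no counting error of the score can be given. Regions typed as depletion, 2 in the combined list and none on X, were left out.

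Coordinates were 1-based and inclusive. Neighbours with fewer than 1000 bp between them were joined within the cut arm. Covered share is clipped to the cut arm (18.4 Mb of X, 63.5 Mb of 2L, 3L and 3R) and is of full sequence length. A cluster was found in the other replicate when at least 1 bp overlapped. Values are given per replicate, with mean ± SD. No test was run. Arm 2R was not used here.

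The clusters and measures were chosen with earlier results of these data known. Regions were named by a fixed rule: the 10 highest scores among combined X clusters present in both replicates, the 5 widest joined domains, the 5 longest stretches without a cluster and the 5 highest and lowest bins. The width within score classes, the place along X, the neighbours of narrow clusters, the comparisons of bounds and of clusters called in 1 replicate were chosen after values were seen. The gene table at hand is of release 6, so no gene was assigned and no sequence is shown. The code was tested on cases with known answers, which took cluster widths or positions from replicate 1 and simulated the gaps, subsets or scores. Python 3.11.15, NumPy 2.4.6, pandas 2.3.3 and SciPy 1.17.1 were used.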

Additional observations from a re-analysis of the deposited data

How the results depend on the processing

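No paired analysis was possible because the results come from no test; X and autosomes were already set against each other within each replicate. Of 42 settings over 7 measures, not counting those that leave out a replicate, 23 stayed within the spread of the replicates, 14 moved beyond it with the same sign and 5 changed sign. With only the upper 50% of each list by score, the X excess was 14.2 clusters per Mb. The covered share then differed by 1.86 percentage points in place of -0.48. Mean joined width had a ratio of 0.686 and median spacing one of 0.474. That filter acts on the score, which ranks higher on X, and so keeps a larger share of X clusters. In the authors' combined list the covered share differed by 1.94 points, median spacing had a ratio of 0.803, the width-matched excess of X among the highest scores was 18.4 points and the SD over 100 kb bins differed by 1.23 points. Cutting 3 Mb from each end gave a covered share difference of 0.296 points and a spacing ratio of 0.842. Joining clusters under 5000 bp apart gave ratios of 0.882 for width and 0.748 for spacing, and no joining gave 0.761 for spacing. The excess among the highest scores was 22.5 points with 5 width classes and 17.5 points for joined domains with a width-weighted mean score. Without width classes it was -4.40 points, so the direction of that result rests on matching for width. The SD over bins differed by -1.02 points with 50 kb bins and by 1.13 points with 200 kb bins. A reciprocal overlap of 50% widened the deficit in shared X clusters to -9.15 points. Leaving out each replicate in turn restates the other and with 2 replicates always stays within 1 SD, so it says nothing of stability; it gave a covered share difference from -1.28 to 0.320 points and an SD difference from -0.169 to 0.892 points. The signs of the covered share and SD differences are therefore not settled; the cause was not tested. Depth is unknown and could not be weighed.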
